A study of Mus musculus with 36 samples.

Results

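The genes described here are 42 collagen and extracellular matrix genes measured in whole mouse lung on microarrays. They were taken from a list of symbols that covers the fibrillar collagens, the basement membrane, the elastic fibre, collagen crosslinking and processing, collagens VI and XIV, small proteoglycans, matrix glycoproteins, and a matrix protease with protease inhibitors. The list was chosen with earlier results of these data known, so counts of members beside all genes are description only. Of the 42, 40 had a probe set of their own, 1 each, and all 40 passed the filter on dim genes among 14953 genes tested. Fbn1 was not named in the probe table and Loxl2 shared its probe set with other symbols, so neither was analysed here.

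Collagens, elastin and their partners are made mostly by fibroblasts and smooth muscle cells, and in the lung they give the airways, vessels and alveolar septa their strength and recoil. Fibrillar collagens are secreted as procollagens, trimmed, and bonded into fibres by lysyl oxidases. Elastin is laid down on microfibrils and crosslinked by the same enzyme family, largely while the lung grows. Basement membranes are thin sheets of laminin and type IV collagen under epithelium and endothelium.

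The groups were A/J lungs after NNK at weeks 3, 6, 9 and 12, untreated A/J lungs at weeks 0, 3, 6, 9 and 12, and the same NNK-treated and untreated weeks in C3H. NNK is a tobacco-specific nitrosamine that forms lung tumours in mice. Mice received 4 injections of 100 mg/kg, 1 a week, while untreated mice were labelled as having no treatment. Whether the weeks count from the first or the last injection is not stated, so weeks are given as labelled. Each of the 18 groups had 2 arrays, 36 in all, and the labels do not say whether these are separate animals, so p-values rest on the spread between these arrays alone, and that spread may be technical. Neither age nor sex nor an array batch was given, so week, age and handling cannot be told apart. In whole lung, fewer cells of a type and less RNA per cell cannot be told apart either.

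Levels are normalized log2 intensities, changes are differences on that scale, and "fell" or "rose" marks an adjusted p under 0.05 in limma, adjusted over all 14953 genes. The lung label was met by the alveolar and endothelial markers, with summed linear levels of 6 alveolar type 2 genes from 50520 to 56890 in NNK-treated A/J, 49390 to 54810 in untreated A/J, 47260 to 52580 in NNK-treated C3H and 51470 to 53430 in untreated C3H arrays. The sums of 8 blood endothelial genes ran from 35050 to 41920 in NNK-treated C3H and from 39410 to 43480 in untreated C3H arrays, and those of 6 alveolar type 1 genes from 29040 to 35150 in NNK-treated C3H and from 32700 to 34380 in untreated C3H arrays. Some arrays stood apart. The skin gene Lor was high in 3 untreated A/J arrays, which are called the arrays with skin genes. It was at 13.65 in array 2 of week 0 and at 12.74 and 13.59 at week 6. The other 33 arrays had 6.82 to 7.40. The mean of 5 cornified skin genes, Lor among them, was 12.08 and 12.49 at week 6 but 9.51 in array 2 of week 0. In the other arrays that mean was 7.88 to 8.37. The acute phase gene Saa3 was at 12.32 in array 2 of untreated A/J week 3 and at 13.33 in array 1 of NNK-treated C3H week 3, and these are called the 2 arrays of highest Saa3. It was also raised in 4 further NNK-treated arrays, at 10.42 and 11.76 at week 6 and 9.26 in array 2 of week 12 in A/J, and at 11.76 in array 2 of week 3 in C3H, against 7.10 to 8.34 in the other 30 arrays. Leaving out the arrays with skin genes takes week 6 out of the untreated A/J trend and the A/J NNK mean. Week 6 of both strains then leaves the strain difference too, and only array 1 of untreated A/J week 0 remains. Calls of untreated lungs that were lost without the arrays with skin genes or of raised Saa3 are named where the genes are described.

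Windows of 3 genes before transcription starts are shown, to set 2 interstitial collagen genes beside the basement membrane collagen gene that moved the other way in A/J. Col3a1 encodes the chain of type III collagen, which fell in both strains. Col1a2 encodes the second chain of type I collagen, whose changes did not pass the test. Col18a1 encodes a basement membrane collagen and was the only member that rose over the weeks in A/J. The sequences are the 250 bases before the annotated start, from RefSeq on build GRCm38.p6, printed on the strand of the gene. Capitals mark matches to 3 short motifs searched on both strands. The first is TATAAA, known as the TATA motif. The second is CCAAT, which reads ATTGG when it lies on the opposite strand. The last is GGGCGG, known as the GC box, which reads CCGCCC on the opposite strand. The positions are chr1:45311288-45311537 on the plus strand for Col3a1, chr6:4505368-4505617 on the plus strand for Col1a2, and chr10:77166531-77166780 on the minus strand for Col18a1, which has a further annotated start.
Col3a1: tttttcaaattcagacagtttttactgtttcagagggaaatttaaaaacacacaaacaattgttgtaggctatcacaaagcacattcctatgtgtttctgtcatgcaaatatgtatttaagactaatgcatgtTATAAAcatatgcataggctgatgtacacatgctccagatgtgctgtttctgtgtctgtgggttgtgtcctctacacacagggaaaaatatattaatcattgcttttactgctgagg
Col1a2: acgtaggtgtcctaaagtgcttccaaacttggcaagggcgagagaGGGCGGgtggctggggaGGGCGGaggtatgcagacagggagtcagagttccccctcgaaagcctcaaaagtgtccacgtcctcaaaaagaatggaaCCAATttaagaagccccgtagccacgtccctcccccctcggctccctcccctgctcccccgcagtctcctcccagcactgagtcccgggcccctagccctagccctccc
Col18a1: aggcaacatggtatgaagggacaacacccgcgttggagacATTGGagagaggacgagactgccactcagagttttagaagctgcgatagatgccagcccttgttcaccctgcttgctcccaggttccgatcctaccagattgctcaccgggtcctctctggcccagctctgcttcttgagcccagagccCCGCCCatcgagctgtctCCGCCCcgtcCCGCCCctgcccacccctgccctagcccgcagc
The Col3a1 window held 1 TATAAA, 117 bases before the start, and neither of the other motifs. The Col1a2 window held 1 CCAAT and 2 GGGCGG, and the Col18a1 window 1 CCAAT and 3 GGGCGG. The window of the further annotated Col18a1 start, not shown, held none of the 3 motifs. Of the 42 genes, 26 matched the promoter table, with 33 windows. TATAAA was found in 4 of these 33 windows, CCAAT in 9 and GGGCGG in 21, while among all 32851 windows of the same length 12.4% held TATAAA, 33.8% CCAAT and 32.7% GGGCGG. A match is a description of these letters and not a binding site.

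In untreated A/J lungs, 12 of the 40 matrix genes fell over the weeks and 1 rose, in a linear trend printed as the change over 12 weeks. Among all genes tested 5.27% fell and 17.5% rose. The falls were those of Col1a1, Col3a1, Col5a2, Eln, Mfap5, Lox, Loxl1, Pcolce, Col6a1, Lum, Postn and Mmp2, and the rise was that of Col18a1. Of the 40, 34 had a change below 0, with a median of -0.20. Over all 14953 genes the median was 0.07, and 5088 were below 0. In untreated C3H lungs 6 fell and none rose (Col3a1, Col5a2, Col15a1, Loxl1, Sparc and Mmp2), where 0.548% of all genes fell and 0.314% rose. There 38 of the 40 were below 0, with a median of -0.28, against 0.00174 over all 14953 genes, of which 7390 were below 0.

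Col3a1, Col5a2, Loxl1 and Mmp2 fell in both strains, 14 genes fell in at least 1, and 33 were below 0 in both. The matching counts over all genes are not given, so this overlap is not set against them. The trends of the strains were compared directly, and no member differed at an adjusted p under 0.05, where 1.32% of all genes did. At an unadjusted p under 0.05 there were 4 members and 2507 of all 14953 genes. Without the 2 arrays of highest Saa3, 1 member, Fbln2, differed, and without all 6 arrays of raised Saa3, 3 did (Col4a1, Col18a1 and Fbln2). A call in A/J and none in C3H does not show that the strains differ. With the strains fitted on their own 18 arrays each, 7 members fell in A/J and 19 in C3H. The shares of all genes in these 2 fits are not given. The median residual SD of the members was 0.135 in A/J and 0.0998 in C3H.

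**Figure D1:**
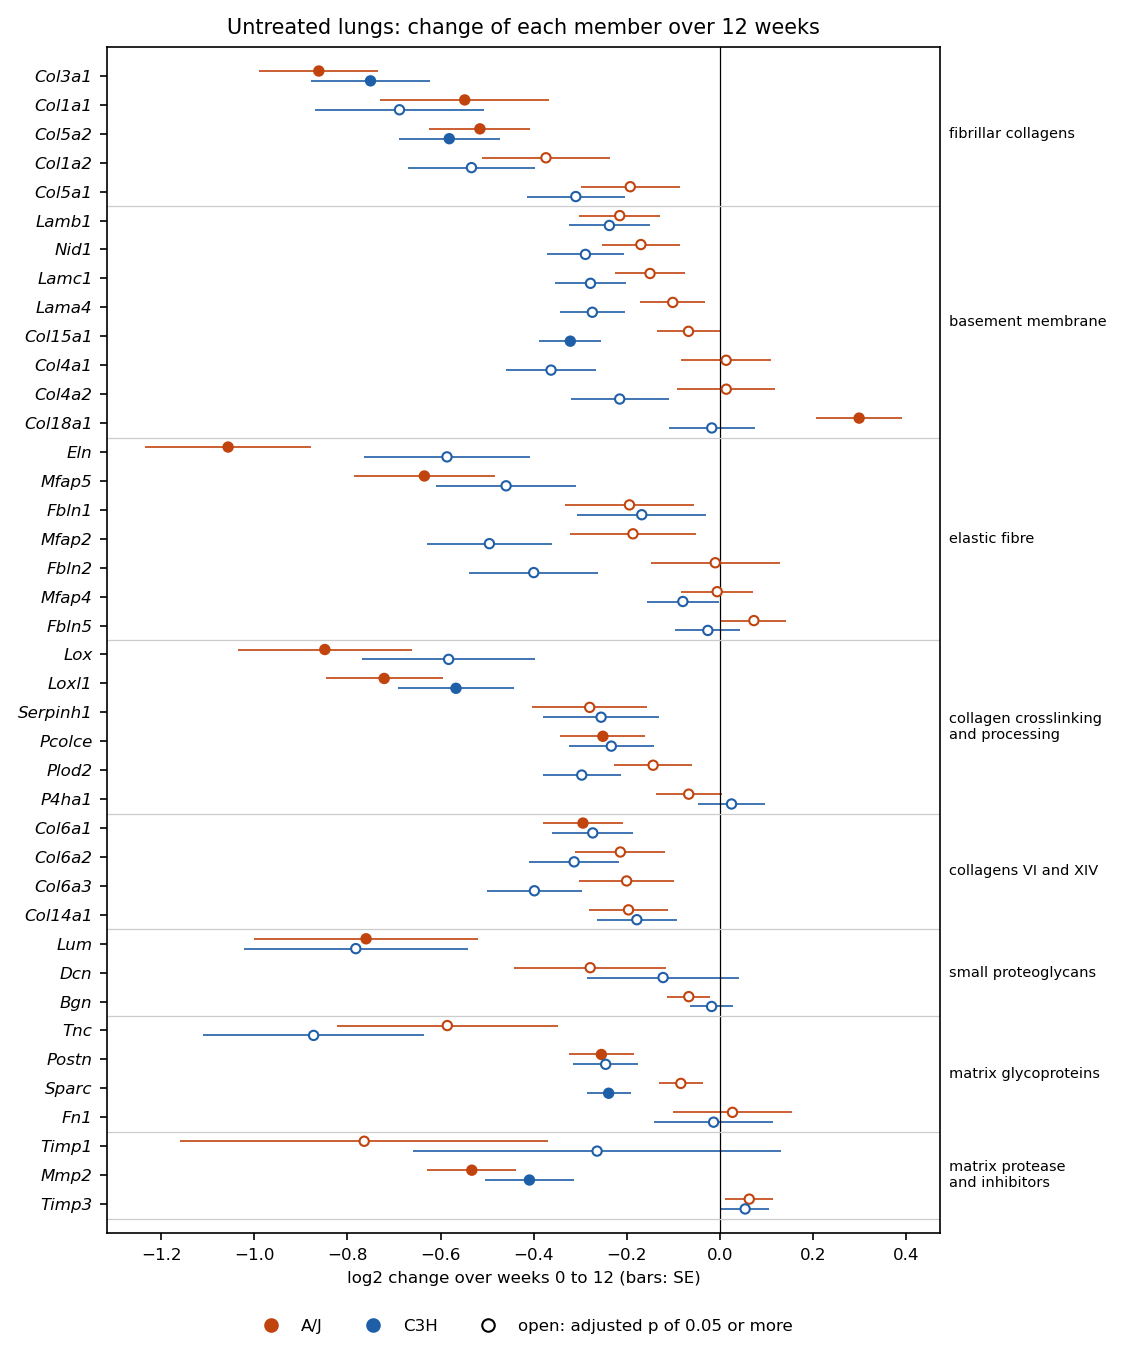
Change of each of the 40 genes over weeks 0 to 12 in untreated lungs (x axis, log2, bars are standard errors), grouped by class, with A/J above C3H for each gene and filled points for an adjusted p under 0.05. Most points lie left of 0, with Eln in A/J lowest at -1.06 and Col18a1 in A/J the only filled point to the right.

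The fibrillar collagens form the ropes of the interstitial matrix. Of 5 genes 3 fell in A/J, with a class median of -0.52, and 2 fell in C3H, with a class median of -0.58. All 5 were below 0 in both strains.

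Col3a1, whose type III collagen forms thin extensible fibrils, had levels in untreated A/J lungs of 10.90 and 10.89 at week 0, 10.76 and 11.05 at week 3, 10.60 and 10.32 at week 6, 10.11 and 10.22 at week 9, and 10.22 and 10.17 at week 12. In untreated C3H lungs they were 10.95 and 11.01 at week 0, 10.56 and 10.62 at week 3, 10.70 and 10.67 at week 6, 10.25 and 10.32 at week 9, and 10.24 and 10.14 at week 12. In both strains the arrays of weeks 9 and 12 lay below every array of weeks 0 to 6. Col3a1 fell by 0.86 ± 0.13 (SE) in A/J, to 0.55 of its level (adjusted p = 0.000125), and by 0.75 ± 0.13 in C3H (adjusted p = 0.0047). Its call in A/J held in each of the 15 alternatives and with each of the 36 arrays left out.

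Col5a2, a chain of type V collagen, which sits in the core of type I fibrils and limits their width, had levels in untreated A/J of 8.98 and 9.01 at week 0, 8.94 and 8.95 at week 3, 8.77 and 8.53 at week 6, 8.51 and 8.90 at week 9, and 8.52 and 8.42 at week 12. The week 9 arrays spread widely, and both week 12 arrays lay below all of weeks 0 and 3. It fell by 0.52 ± 0.11 in A/J (adjusted p = 0.00245) and by 0.58 ± 0.11 in C3H (adjusted p = 0.0102).

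Col1a1, the main chain of type I collagen, had levels in untreated A/J of 10.90 and 11.03 at week 0, 10.54 and 10.94 at week 3, 10.65 and 10.53 at week 6, 10.11 and 10.55 at week 9, and 10.42 and 10.56 at week 12. In untreated C3H they were 11.15 and 11.36 at week 0, 10.63 and 10.77 at week 3, 10.78 and 10.95 at week 6, 10.45 and 10.64 at week 9, and 10.37 and 10.58 at week 12. The week 0 arrays were the highest untreated arrays in C3H, and in A/J array 2 of week 3 lay between them. Col1a1 fell by 0.55 ± 0.18 in A/J (adjusted p = 0.0341), and its change in C3H was -0.69 ± 0.18 (adjusted p = 0.0708). The A/J call did not hold without the arrays with skin genes (-0.50, adjusted p = 0.146). Its partner chain Col1a2 had a change of -0.37 in A/J and -0.53 in C3H, with adjusted p of 0.0521 in A/J and 0.0606 in C3H. Col5a1 had the smallest change of the class in both strains, -0.19 in A/J and -0.31 in C3H.

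**Figure D2:**
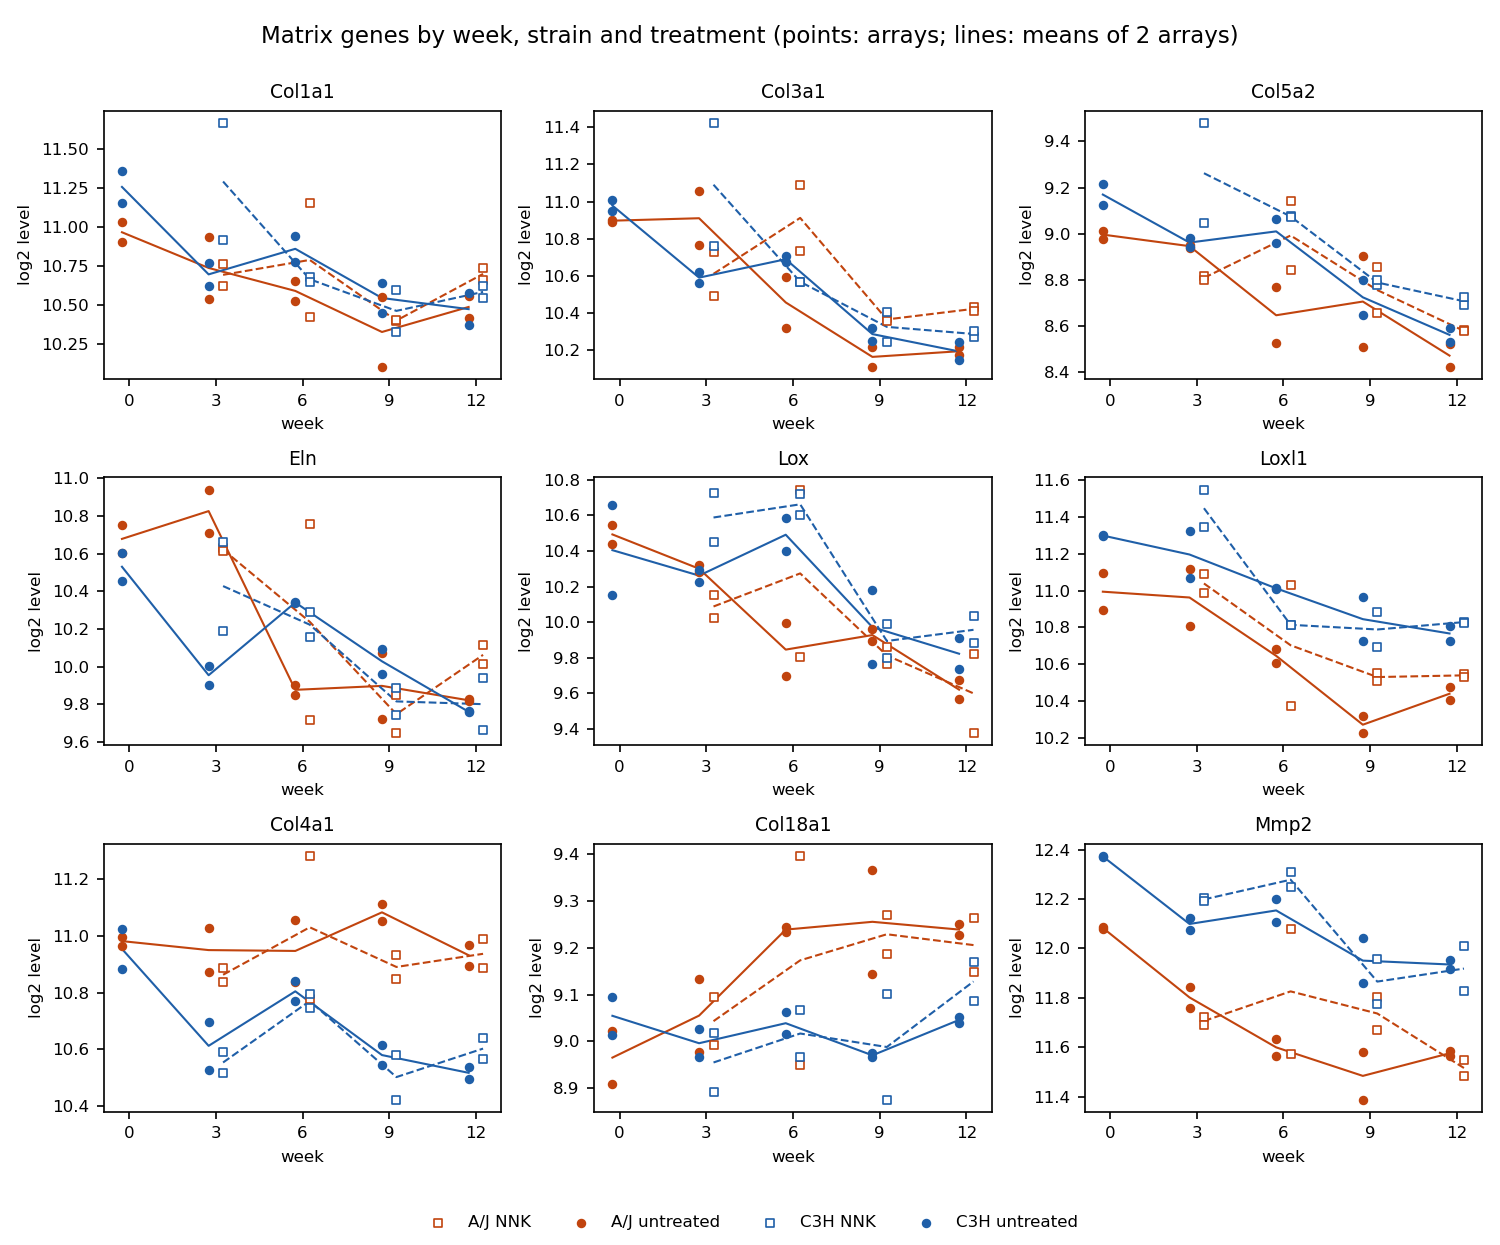
Normalized log2 level (y axis) by week (x axis) of 9 matrix genes, 1 panel each, with A/J in red and C3H in blue, open squares for NNK-treated and filled circles for untreated arrays, and lines through the means of 2 arrays. Col3a1, Col5a2, Eln, Lox, Loxl1 and Mmp2 are lower at week 12 than at week 0 in both strains, while Col18a1 in A/J is higher at weeks 6 to 12.

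Elastic fibre genes encode elastin and the microfibril and fibulin proteins around it. Of 7 measured genes, 2 fell in A/J, with a class median of -0.19, and none in C3H, with a class median of -0.40. In C3H 4 of the 7 had an unadjusted p under 0.05, as did 1813 of all 14953 genes.

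Eln encodes tropoelastin, the soluble precursor of elastin. Its levels in untreated A/J were 10.60 and 10.75 at week 0, 10.71 and 10.94 at week 3, 9.91 and 9.85 at week 6, 9.72 and 10.07 at week 9, and 9.83 and 9.82 at week 12. In untreated C3H they were 10.61 and 10.46 at week 0, 9.90 and 10.01 at week 3, 10.34 and 10.34 at week 6, 9.96 and 10.09 at week 9, and 9.76 and 9.76 at week 12. In A/J the change was a step between weeks 3 and 6, with no overlap between the arrays before and after it, whereas in C3H week 3 lay below week 6. Eln fell by 1.06 ± 0.18 in A/J, to 0.481 of its level (adjusted p = 0.000413), the largest change of the 40 in either strain. In C3H the change was -0.59 ± 0.18 (adjusted p = 0.129), and the difference between the strains was -0.47 ± 0.25 (adjusted p = 0.355).

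Mfap5, a microfibril protein, had levels in untreated A/J of 9.51 and 10.01 at week 0, 9.79 and 9.66 at week 3, 9.55 and 9.26 at week 6, 9.20 and 8.94 at week 9, and 9.27 and 9.33 at week 12. The higher week 0 array, with high Lor, is one of those called the arrays with skin genes. Mfap5 fell by 0.63 ± 0.15 in A/J (adjusted p = 0.00542), and without the arrays with skin genes its change was -0.44 (adjusted p = 0.0799). In C3H it had a change of -0.46 ± 0.15 (adjusted p = 0.166).

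Mfap2, the other microfibril-associated glycoprotein of this pair, had a change of -0.19 in A/J and -0.50 in C3H, and Fbln2, a fibulin of vessel walls, one of -0.01 in A/J and -0.40 in C3H. None of these 4 values passed the test. Fbln1, Fbln5 and Mfap4, whose proteins bind elastic fibres, had changes between -0.19 and 0.07 in both strains.

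Genes for crosslinking and processing encode the enzymes and chaperones that turn procollagen and tropoelastin into stable fibres. Of 6 measured genes 3 fell in A/J and 1 in C3H, with class medians of -0.27 in A/J and -0.28 in C3H.

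Lox, the founding lysyl oxidase, had levels in untreated A/J of 10.55 and 10.44 at week 0, 10.28 and 10.32 at week 3, 9.99 and 9.70 at week 6, 9.96 and 9.89 at week 9, and 9.67 and 9.56 at week 12. Every array of weeks 6 to 12 lay below every array of weeks 0 and 3. Lox fell by 0.85 ± 0.19 (adjusted p = 0.00318), to 0.555 of its level. In untreated C3H its levels were 10.66 and 10.15 at week 0, 10.29 and 10.23 at week 3, 10.58 and 10.40 at week 6, 10.18 and 9.76 at week 9, and 9.91 and 9.73 at week 12, with the week 0 arrays 0.5 apart, and the change was -0.58 ± 0.19 (adjusted p = 0.153).

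Loxl1, the lysyl oxidase relative needed for the upkeep of elastic fibres in mice, had levels in untreated A/J of 10.89 and 11.10 at week 0, 10.81 and 11.12 at week 3, 10.68 and 10.61 at week 6, 10.22 and 10.32 at week 9, and 10.47 and 10.40 at week 12. In untreated C3H they were 11.30 and 11.30 at week 0, 11.32 and 11.07 at week 3, 11.01 and 11.01 at week 6, 10.72 and 10.97 at week 9, and 10.73 and 10.81 at week 12. No array of weeks 6 to 12 reached the lowest array of weeks 0 and 3 in either strain. Loxl1 fell by 0.72 ± 0.13 in A/J (adjusted p = 0.000539) and by 0.57 ± 0.13 in C3H (adjusted p = 0.0311).

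Pcolce, which helps the enzyme that trims procollagen ends, fell by 0.25 in A/J with an adjusted p of 0.0499, a call that was lost in 32 of 36 fits with a single array removed, without the arrays with skin genes (-0.23, adjusted p = 0.179) and without the 2 arrays of highest Saa3 (-0.17, adjusted p = 0.105). Plod2, a lysyl hydroxylase, had a change of -0.14 in A/J and -0.30 in C3H, and Serpinh1, the collagen chaperone, one of -0.28 in A/J and -0.25 in C3H, none of them past the test. P4ha1, a subunit of prolyl 4-hydroxylase, stood at -0.07 in A/J and 0.02 in C3H.

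The basement membrane genes form the sheets under epithelium and endothelium. Of 8 genes none fell and 1 rose in A/J, with a class median of -0.08, and 1 fell in C3H, with a class median of -0.28. For all 8 the trend was higher in A/J than in C3H, by 0.02 to 0.38, as it was for 10067 of all 14953 genes. Yet none of the 8 differences passed the test over all genes. An unadjusted p under 0.05 was found for 3 of the 8 and for 2507 of all genes.

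Col18a1, whose type XVIII collagen carries the endostatin fragment, had levels in untreated A/J of 8.91 and 9.02 at week 0, 8.98 and 9.13 at week 3, 9.24 and 9.23 at week 6, 9.14 and 9.37 at week 9, and 9.23 and 9.25 at week 12. In untreated C3H all 10 arrays lay between 8.97 and 9.09. The A/J arrays of weeks 6 to 12 lay above those of weeks 0 and 3. Col18a1 rose by 0.30 ± 0.09 in A/J (adjusted p = 0.025) and stood at -0.02 ± 0.09 in C3H, while the difference of the trends was 0.32 ± 0.13 (adjusted p = 0.223). The change was 0.21 on the deposited scale without quantile normalization (adjusted p = 0.132) and 0.34 without the arrays with skin genes (adjusted p = 0.0511).

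Col4a1, a chain of the type IV collagen network, had levels in untreated A/J of 10.998 and 10.97 at week 0, 10.87 and 11.03 at week 3, 11.06 and 10.84 at week 6, 11.05 and 11.11 at week 9, and 10.97 and 10.90 at week 12. In untreated C3H they were 11.03 and 10.88 at week 0, 10.53 and 10.70 at week 3, 10.77 and 10.84 at week 6, 10.62 and 10.55 at week 9, and 10.54 and 10.50 at week 12. The strains overlapped at week 0 and, narrowly, at week 6. They were apart at weeks 3, 9 and 12, the A/J arrays being higher. The change was 0.01 ± 0.10 in A/J and -0.36 ± 0.10 in C3H (adjusted p = 0.0722), and the difference of 0.38 ± 0.14 had an adjusted p of 0.158. Without all 6 arrays of raised Saa3 the difference passed (0.41, adjusted p = 0.0235). Col4a2, which pairs with Col4a1, stood at 0.01 in A/J and -0.22 in C3H.

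Col15a1, a collagen of the zone beside basement membranes, had levels in untreated C3H of 9.26 and 9.11 at week 0, 8.90 and 8.97 at week 3, 8.96 and 9.12 at week 6, 8.81 and 8.80 at week 9, and 8.86 and 8.84 at week 12. It fell there by 0.32 ± 0.07 (adjusted p = 0.0235) and stood at -0.07 ± 0.07 in A/J. The laminin chains Lama4, Lamb1 and Lamc1 and the linker nidogen, Nid1, had changes between -0.22 and -0.10 in A/J and between -0.29 and -0.24 in C3H, none past the test.

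**Figure D3:**
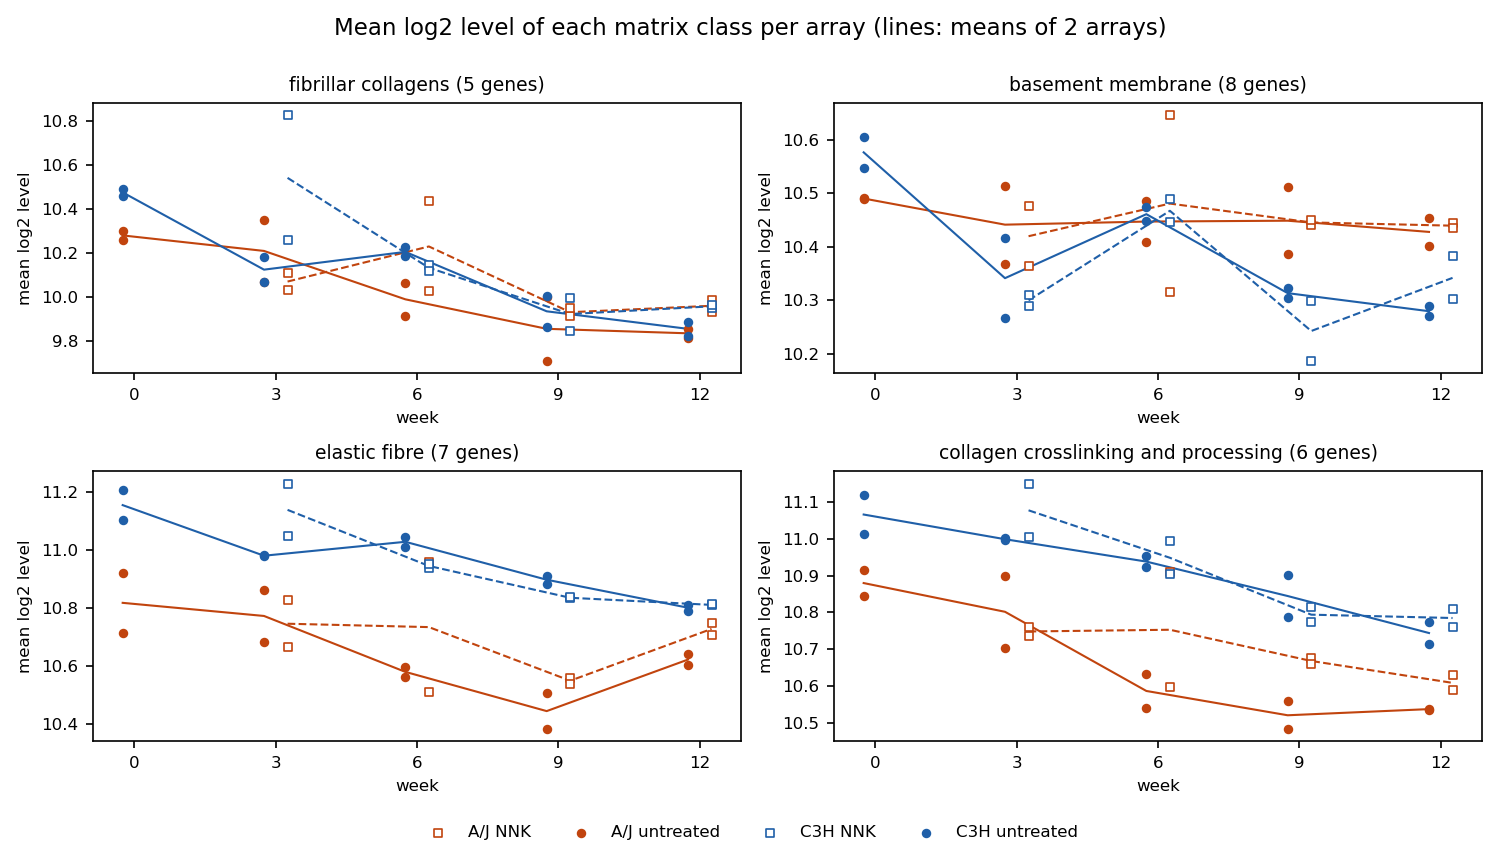
Mean log2 level of 4 matrix classes in each array (y axis) by week (x axis), A/J in red and C3H in blue, open squares for NNK-treated and filled circles for untreated arrays, with lines through means of 2 arrays. In untreated lungs the fibrillar class stands at 9.82 and 9.85 at week 12 in A/J and at 9.82 and 9.89 in C3H, below the week 0 arrays of both strains, while the basement membrane class in A/J stays between 10.37 and 10.51.

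Collagen VI forms beaded filaments and collagen XIV decorates fibrils. All 4 genes of these collagens were below 0 in both strains, with class medians of -0.21 in A/J and -0.29 in C3H. Col6a1 fell in A/J by 0.29 ± 0.09 (adjusted p = 0.0189) and had a change of -0.27 in C3H. Col6a3 had a change of -0.20 in A/J and -0.40 in C3H (adjusted p = 0.0596), Col6a2 of -0.21 in A/J and -0.31 in C3H, and Col14a1 of -0.20 in A/J and -0.18 in C3H.

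Lum, the small proteoglycan lumican, which steers fibril growth, was the most variable of its class. Its levels in untreated A/J were 8.46 and 8.98 at week 0, 7.93 and 8.52 at week 3, 8.59 and 8.02 at week 6, 7.36 and 7.04 at week 9, and 8.49 and 8.06 at week 12. The low point was week 9, and 1 week 12 array lay just above the lower week 0 array, so that these weeks overlapped. Lum fell by 0.76 ± 0.24 over the trend (adjusted p = 0.0276), but without the arrays with skin genes its change was -0.55 (adjusted p = 0.18), and in C3H it had a change of -0.78 ± 0.24 (adjusted p = 0.132). Decorin, Dcn, had a change of -0.28 in A/J and -0.12 in C3H, and biglycan, Bgn, one of -0.07 in A/J and -0.02 in C3H.

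Among the matrix glycoproteins, Postn, periostin, fell by 0.25 ± 0.07 in A/J (adjusted p = 0.013), with 11.93 and 12.00 at week 12 against 12.24 and 12.16 at week 0. Sparc, a collagen-binding glycoprotein, fell by 0.24 ± 0.05 in C3H (adjusted p = 0.0139), with 13.46 and 13.44 at week 12 against 13.71 and 13.73 at week 0, and its change in A/J was -0.08. Tnc, tenascin-C, a protein of growing and injured tissue, had the largest change of the 40 in C3H, -0.87 ± 0.24 (adjusted p = 0.0808), and -0.59 ± 0.24 in A/J (adjusted p = 0.0773). Fn1, fibronectin, stood at 0.03 in A/J and -0.01 in C3H.

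Mmp2, a gelatinase that cuts collagens, had levels in untreated A/J of 12.09 and 12.08 at week 0, 11.76 and 11.85 at week 3, 11.63 and 11.57 at week 6, 11.39 and 11.58 at week 9, and 11.59 and 11.57 at week 12. In untreated C3H they were 12.37 and 12.37 at week 0, 12.07 and 12.12 at week 3, 12.20 and 12.11 at week 6, 12.04 and 11.86 at week 9, and 11.95 and 11.92 at week 12. No later array reached the week 0 arrays in either strain. It fell by 0.53 ± 0.10 in A/J (adjusted p = 0.00073) and by 0.41 ± 0.10 in C3H (adjusted p = 0.0407). The C3H call was lost in 11 of the 36 fits with 1 array left out and in 5 of the 15 alternatives, among them that without the arrays with skin genes (adjusted p = 0.0556). The inhibitors of metalloproteinases did not pass, with Timp1 at -0.76 ± 0.40 in A/J and -0.26 ± 0.40 in C3H. The A/J value of Timp1 rested on the untreated week 3 array with Saa3 at 12.32, and was -0.29 without the 2 arrays of highest Saa3 (adjusted p = 0.0714) and without all 6 of raised Saa3 (adjusted p = 0.0439). Timp3 stood at 0.06 in A/J and 0.05 in C3H.

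Against week 0, no member differed at week 3 in A/J, where 0.555% of all genes were lower. An unadjusted p under 0.05 was found there for 4 members and for 2916 of all 14953 genes. At week 6, 5 were lower (all genes 5.57%), at week 9, 16 were lower and 1 higher (5.97% lower and 15% higher), and at week 12, 7 were lower (3.38%). In C3H the numbers of lower members were 0, 0, 1 and 3 at weeks 3, 6, 9 and 12. The shares of all genes were 0%, 0%, 0.0134% and 0.201%. At weeks 3 and 6, 17 and 7 members had an unadjusted p under 0.05, where 899 of all 14953 genes did at each week. Both week 12 arrays lay below both week 0 arrays for 26 of the 40 members in A/J, where this held for 15% of all genes, and for 33 in C3H, where it held for 24%. Over weeks 3 to 12 alone, Col3a1, Eln and Loxl1 fell in A/J, by 0.73, 0.90 and 0.58, where 0.595% of all genes did. No member fell in C3H, where no gene passed. There 10 members had an unadjusted p under 0.05, as did 1554 of all 14953 genes.

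The share of all genes that fell is not given for fits with arrays left out. Counts from these fits are therefore not set against all genes. The number of falls in C3H moved with single arrays. It was 1 without either C3H week 0 array or without array 1 of week 12, 17 without either NNK-treated A/J array of week 6, 12 without the 2 arrays of highest Saa3, and 22 without all 6 arrays of raised Saa3. In A/J it ran from 8 to 16 over the same 36 fits, and 8 of the 12 falls held without the arrays with skin genes (Col3a1, Col5a2, Eln, Lox, Loxl1, Col6a1, Postn and Mmp2). On the deposited scale without quantile normalization 14 members fell in A/J, of which 11 were among the 12, while the share of rises among all genes called in A/J was 40.5% on that scale and 76.9% after normalization.

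Markers of matrix-making cells did not all run with the members. Of 10 lung fibroblast markers, Dpt and Pi16 of adventitial fibroblasts fell in both strains, by 0.41 and 0.37 in A/J and by 0.40 and 0.46 in C3H. In all, 3 of the 10 fell and 2 rose in A/J, where 5.27% of all genes fell and 17.5% rose, and 3 fell in C3H, where 0.548% did. The mean level of the 10 markers in untreated A/J was 10.06 and 10.08 at week 12 against 10.08 and 10.04 at week 0, and in untreated C3H 10.01 and 9.996 at week 12 against 10.15 and 10.15 at week 0. The summed level of these markers ranged from 17500 to 19890 in untreated A/J and from 17370 to 19720 in untreated C3H arrays. Of 7 smooth muscle and myofibroblast genes 0 passed in limma in either strain. At an unadjusted p under 0.05 there were 2 in A/J and 4 in C3H, against 5496 and 1813 of all 14953 genes. The 7 genes had medians of -0.14 in A/J and -0.24 in C3H. Their mean level was 10.95 and 10.83 at week 12 against 10.85 and 11.11 at week 0 in untreated A/J, and 10.75 and 10.87 against 10.99 and 11.13 in untreated C3H. Of 6 pericyte genes 1 was higher and 1 lower by the same test in A/J. None of the 6 passed in C3H, where 2 had an unadjusted p under 0.05, with medians of 0.07 in A/J and -0.13 in C3H. In untreated C3H the pericyte mean was 9.44 and 9.44 at week 12 against 9.65 and 9.67 at week 0. In C3H all 7 and all 6 of these genes were below 0. Of 9 proliferation genes 0 passed the trend in limma in either strain, and 0 had an unadjusted p under 0.05. The summed level of 7 cartilage genes, which can come with airway tissue, ranged from 1412 to 2304 in untreated A/J and from 1873 to 2161 in untreated C3H, and of the 3 tested in A/J, Chad fell by 0.80 while Col2a1 stood at 0.13 and Cnmd at 0.25. The part of these cells in the changes was not tested.

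Of 89 other matrix genes tested, 11 rose and 7 fell in A/J, where 17.5% of all genes rose and 5.27% fell. The median of the 89 there was 0.05, against 0.07 over all genes. None of the 89 passed in C3H, where their median was -0.07. There 18 had an unadjusted p under 0.05, as did 1813 of all 14953 genes. The rises in A/J included P4ha2, a further prolyl 4-hydroxylase subunit (0.39), Col8a2 (0.37), Tnxb (0.57), Smad7, an inhibitor of TGF-beta signalling (0.41), and Col27a1 (0.37). The falls included Mmp14, the membrane protease that activates the Mmp2 protein (-0.50), Tgfb3, a TGF-beta ligand (-0.33), Lama2 (-0.27), Ppib (-0.27) and Spon1 (-0.23).

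NNK changed no member past the test in either strain. This change was the mean of NNK-treated minus untreated arrays over weeks 3, 6, 9 and 12, and it shares its untreated arrays with the trends above. In A/J 34 of the 40 changes were above 0, with a median of 0.07. Over all 14953 genes 8475 were above 0, with a median of 0.01, and 10% passed. An unadjusted p under 0.05 was found for 4 members and for 4007 of all genes. In C3H 29 of the 40 were above 0, with a median of 0.03. Over all genes 6877 were above 0, with a median of -0.01, and 0.0803% passed. At an unadjusted p under 0.05 there were 3 members and 936 of all genes. The difference of the NNK changes between the strains passed for no member, where it did for 1.13% of all genes. Its unadjusted p was under 0.05 for 2 members and for 2715 of all 14953 genes.

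**Figure D4:**
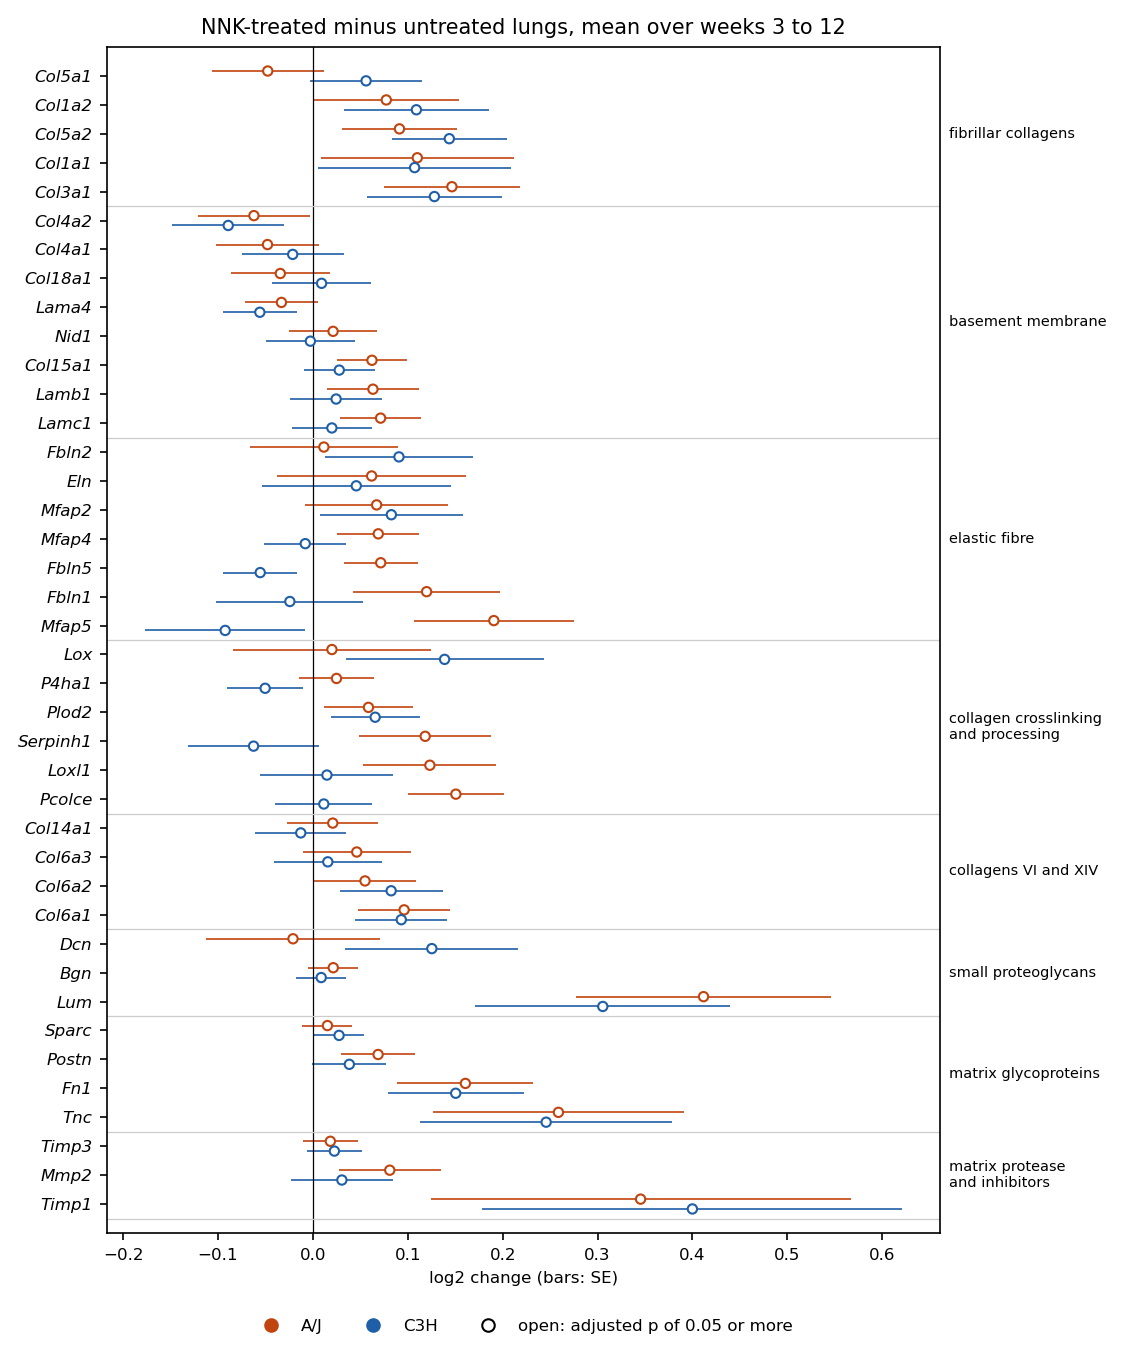
NNK-treated minus untreated level of each of the 40 genes, averaged over weeks 3 to 12 (x axis, log2, bars are standard errors), grouped by class, with A/J above C3H for each gene. All points are open, since none reached an adjusted p under 0.05, and the widest bars are those of Timp1.

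Lum had the smallest p in A/J. Its levels were 8.12 and 8.53 in NNK-treated lungs against 7.93 and 8.52 in untreated lungs at week 3, 8.29 and 9.16 against 8.59 and 8.02 at week 6, 7.98 and 8.31 against 7.36 and 7.04 at week 9, and 8.46 and 8.45 against 8.49 and 8.06 at week 12. Only at week 9 were the groups apart. The change was 0.41 ± 0.13 (adjusted p = 0.0535) in A/J and 0.31 ± 0.13 (adjusted p = 0.766) in C3H.

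Pcolce had levels of 11.96 and 11.91 in NNK-treated A/J lungs against 11.70 and 12.12 in untreated ones at week 3, 12.09 and 11.76 against 11.78 and 11.69 at week 6, 11.94 and 11.97 against 11.70 and 11.59 at week 9, and 11.89 and 11.81 against 11.79 and 11.76 at week 12. The NNK-treated arrays were higher without overlap at weeks 9 and 12. The change was 0.15 ± 0.05 in A/J (adjusted p = 0.061) and 0.01 ± 0.05 in C3H. Mfap5 had a change of 0.19 ± 0.08 in A/J (adjusted p = 0.15) and of -0.09 ± 0.08 in C3H, and this difference between the strains was 0.28 ± 0.12 (adjusted p = 0.209). In C3H, Col5a2 had a change of 0.14 ± 0.06 (adjusted p = 0.736) and Fn1 of 0.15 ± 0.07 (adjusted p = 0.793).

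By class, the NNK medians in A/J and C3H were 0.09 and 0.11 for the fibrillar collagens, -0.01 and 0.00 for the basement membrane, 0.07 and -0.01 for the elastic fibre, and 0.09 and 0.01 for crosslinking and processing. No member passed at any single week in either strain. Among all genes 0.354%, 7.27%, 1.54% and 0.0736% passed at weeks 3, 6, 9 and 12 in A/J, and 0.0936%, 0.0134%, 0% and 0% in C3H. At unadjusted p under 0.05 there were 1909, 3781, 2730 and 1091 of all 14953 genes in A/J and 2125, 611, 281 and 182 in C3H. The members numbered 3, 6, 6 and 2 in A/J and 13, 1, 0 and 0 in C3H. At week 6 in A/J the nearest was Col3a1, at 11.09 and 10.73 in NNK-treated against 10.60 and 10.32 in untreated lungs (0.46 ± 0.14, adjusted p = 0.0533).

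In NNK-treated lungs the weeks were compared over weeks 3 to 12. In NNK-treated A/J only Loxl1 fell, by 0.50 ± 0.13 (adjusted p = 0.0375), where 1.15% of all genes fell. Its levels were 11.09 and 10.99 at week 3, 11.03 and 10.37 at week 6, 10.55 and 10.51 at week 9, and 10.55 and 10.53 at week 12, so that the week 6 arrays bridged high and low. In NNK-treated C3H, Col3a1 fell by 0.80 ± 0.14 (adjusted p = 0.0111) and Col5a2 by 0.59 ± 0.12 (adjusted p = 0.0244), where 0.247% of all genes fell. Col3a1 there stood at 11.42 and 10.76 at week 3, 10.57 and 10.57 at week 6, 10.24 and 10.40 at week 9, and 10.27 and 10.30 at week 12. Both calls were lost without the 2 arrays of highest Saa3, where 1 member, Timp1, fell. The trend in NNK-treated lungs minus that in untreated lungs passed for no member in either strain. Among all genes 0.0334% passed in A/J and 0% in C3H. Here 2 members in A/J and 1 in C3H had an unadjusted p under 0.05, against 805 and 793 of all 14953 genes. Both week 12 arrays lay below both week 3 arrays for 14 of the 40 in NNK-treated A/J (24.9% of all genes) and for 24 in NNK-treated C3H (17.5%).

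In 3 groups more than 1 member lay over 0.5 apart between the arrays of the pair. The share of all genes that lay so far apart is not given. In NNK-treated C3H at week 3, 9 members lay more than 0.5 apart, array 1 being higher in 29 of 40. The median absolute difference of this pair was 0.162 over the members and 0.106 over all genes. Array 1, with Saa3 at 13.33, had Timp1 at 10.84 against 9.24 in array 2, Tnc at 10.60 against 9.75, Col1a1 at 11.67 against 10.92, and Fn1 at 13.40 against 12.80. In untreated A/J at week 3, 2 members lay more than 0.5 apart. The median absolute difference was 0.215 over the members and 0.167 over all genes. In this pair the array with Saa3 at 12.32 had Timp1 at 10.37 against 8.01 in the other. In both groups the mean level of 6 mesothelial markers was higher in the same array, at 11.28 against 10.39 in NNK-treated C3H and at 11.09 against 10.39 in untreated A/J, while it lay between 9.95 and 10.76 in every other array. The part of mesothelium or of the acute phase in these values was not tested.

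In NNK-treated A/J at week 6, 12 members lay more than 0.5 apart and array 1 was higher in 32 of 40. The median absolute difference of this pair was 0.338 over the members and 0.101 over all genes. Array 1 had the higher Eln (10.76 against 9.72), Lox (10.75 against 9.80), Tnc (10.06 against 8.84), Col1a1 (11.16 against 10.43) and Col4a1 (11.28 against 10.78). Array 2 had the higher Lum (9.16 against 8.29) and Dcn (12.85 against 11.96), so Lum and Dcn ran opposite to these genes. In each of the remaining 15 groups at most 1 member lay that far apart.

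**Figure D5:**
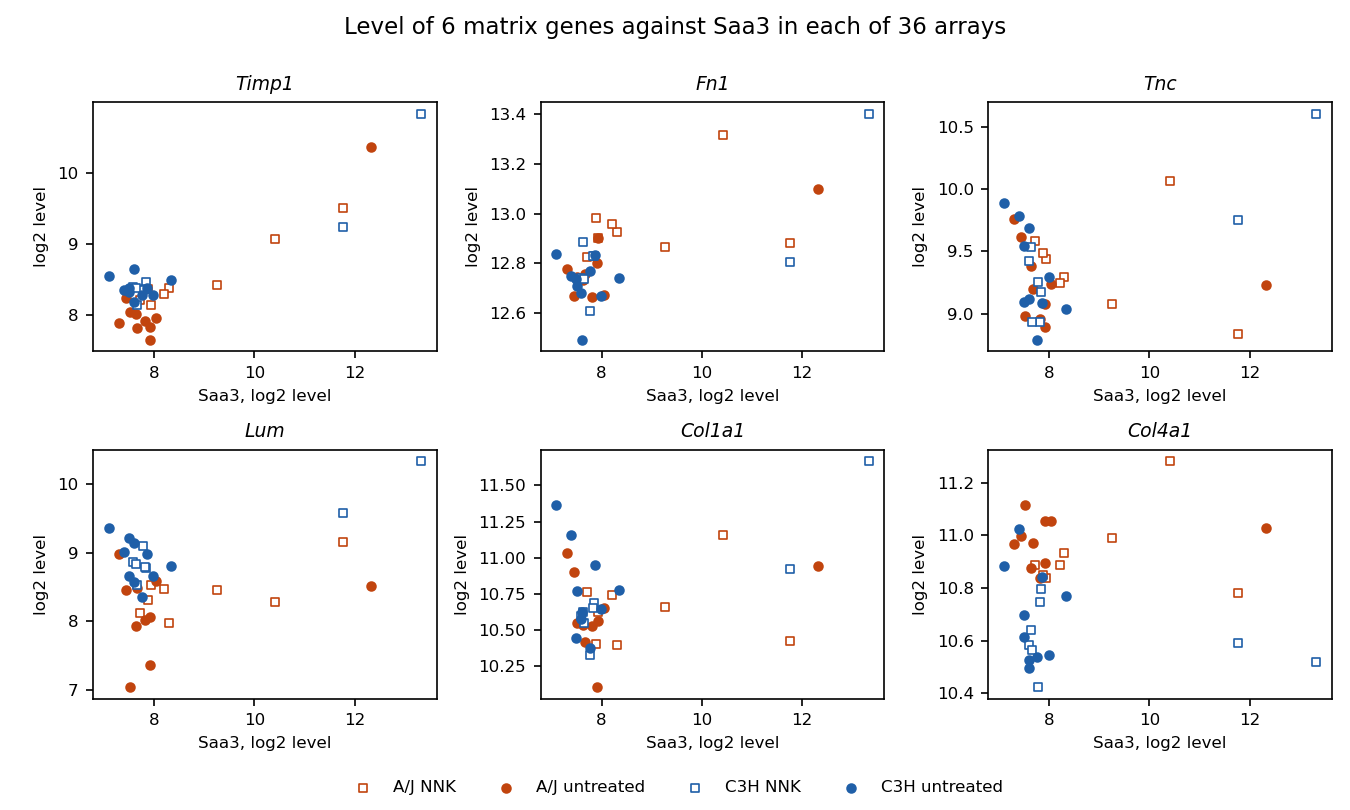
Level of 6 matrix genes (y axis) against the level of Saa3 (x axis) in all 36 arrays, both log2, A/J in red and C3H in blue, open squares for NNK-treated and filled circles for untreated arrays. The NNK-treated C3H array with Saa3 at 13.33 has the highest Timp1, Fn1, Tnc, Lum and Col1a1 of all arrays but not the highest Col4a1.

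The NNK change in A/J depended on which of these arrays were kept. With all arrays, 7.44% of all genes rose with NNK in A/J. The share in the fits below is not given, so their counts do not set the matrix genes apart from all genes. Without the 2 arrays of highest Saa3, 6 members rose in A/J, namely Timp1 by 0.64 (adjusted p = 3.86e-06), Lum by 0.48, Fn1 by 0.21, Pcolce by 0.20, Col3a1 by 0.18 and Col6a1 by 0.13. That removes an untreated A/J array and keeps NNK-treated A/J arrays with raised Saa3. Without all 6 arrays of raised Saa3, which takes week 6 out of the A/J mean and week 3 out of the C3H mean, 5 members rose, namely Lum by 0.51 (adjusted p = 0.0265), Timp1 by 0.38 (adjusted p = 0.00495), Pcolce by 0.22 (adjusted p = 0.00557), Loxl1 by 0.20 (adjusted p = 0.0434) and Col6a1 by 0.14 (adjusted p = 0.0448). Col3a1 then stood at 0.10 (adjusted p = 0.291) and Fn1 at 0.15 (adjusted p = 0.0781). With the 2 arrays of highest Saa3 and the arrays with skin genes left out together, Timp1, Lum and Pcolce rose.

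Timp1 levels at weeks 6, 9 and 12 were 9.07 and 9.50, 8.38 and 8.36, and 8.29 and 8.42 in NNK-treated A/J lungs, against 7.96 and 7.91, 7.83 and 8.04, and 7.82 and 7.65 in untreated A/J lungs. At week 3 they were 8.21 and 8.14 in NNK-treated against 8.01 and 10.37 in untreated lungs. The groups overlapped at week 3 only, where the untreated array with Saa3 at 12.32 was the highest. The A/J minus C3H difference of the Timp1 change was 0.44 (adjusted p = 0.0195) without the 2 arrays of highest Saa3 and did not pass without all 6 arrays. In C3H no member passed with NNK in any of these fits.

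Untreated A/J and C3H lungs, averaged over the 5 weeks, differed for many matrix genes, as they did for many of all genes tested. Of the 40, 22 were lower and 5 higher in A/J, with a median of -0.13, where 36.3% of all genes were lower and 19.8% higher. All 5 that were higher are basement membrane genes (Col4a1, Col4a2, Col18a1, Lamb1 and Lamc1), and the other 3 of that class, Col15a1, Nid1 and Lama4, were lower. The Lama4 difference of -0.09 (adjusted p = 0.0397) lost its call in 12 of the 36 fits with 1 array left out. Without the arrays with skin genes 18 members were lower and 4 higher, and Lama4, Col5a2, Col6a2, Col14a1 and Col18a1 lost their calls. Timp1 stood at -0.21 (adjusted p = 0.374), and was -0.45 without all 6 arrays of raised Saa3 (adjusted p = 6.91e-07).

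Mfap5 differed most. Over 10 untreated arrays each, its lowest, median and highest levels were 8.94, 9.42 and 10.01 in A/J and 9.97, 10.34 and 10.54 in C3H. Only the A/J week 0 array with high Lor reached the C3H range. The difference was -0.84 ± 0.08 (adjusted p = 3.03e-09). Serpinh1 had 10.08, 10.49 and 10.86 in A/J and 10.90, 11.10 and 11.25 in C3H, with no overlap (-0.61 ± 0.06, adjusted p = 2.1e-08). Fbln5, required for elastic fibre assembly in mice, also did not overlap, with 11.14, 11.30 and 11.49 in A/J and 11.60, 11.67 and 11.78 in C3H (-0.36 ± 0.03, adjusted p = 1.17e-08). Col4a1, with 10.84, 10.98 and 11.11 in A/J and 10.50, 10.66 and 11.03 in C3H, overlapped but was higher in A/J by 0.29 ± 0.05 (adjusted p = 2.76e-05). Without the arrays with skin genes or the 2 of highest Saa3, 3 members were higher in A/J, Col4a2 and Col18a1 losing their calls.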

How the data were processed

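Total RNA of mouse lung was hybridised to Affymetrix Mouse Gene 1.0 ST arrays. The deposited file holds linear intensities for every probe set. Per the submitters' processing notes, PLIER and Expression Console made them, while software versions, settings and the genome build are not given in the sources used here. The array medians ran from 285.4 to 347.0. Arrays give no read depth, and their number limits the precision.

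The deposited intensities were converted to log2(intensity + 16), a scale on which dim genes show smaller changes. Array medians then spanned 0.268, and the arrays were quantile-normalized. Of 35556 probe sets, 21789 had 1 gene symbol, 1621 had several and 12146 were not named. Of the named ones, 21698 matched a RefSeq gene table, which changed 0 symbols. Of several probe sets of a gene the one of highest mean level stood for it, giving 19938 genes, and the 14953 at or above the 25th percentile were tested.

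All tests came from 1 limma fit (version 3.58.1, R 4.3.3) with a mean for each of 18 groups and 18 residual degrees of freedom, moderated variances and Benjamini-Hochberg adjustment over all 14953 genes at 0.05. Errors are standard errors of the fit. The scripts were tested on simulated data. Members, lists and tests were chosen with earlier results of these data known. In each class up to 4 members with the smallest p in either untreated trend were given with values, and Col1a1, Eln, Col4a1 and Lox in any case. For NNK the 3 members of smallest p in each strain were named, for other matrix genes up to 5 rises and 5 falls, and for a marker list up to 2 genes. The genes named from array pairs, from the strain difference, from fits without some arrays and from NNK among other matrix genes were chosen after their values were seen. Same-numbered arrays deviated together in some pairs of groups and in opposite ways in others, so no block was used. Promoter windows came from a RefSeq table.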

Additional observations from a re-analysis of the deposited data

How the results depend on the processing

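The numbers of members called depended on the spread estimate and on single arrays, and no called change turned its direction in any alternative. The share of all genes called can change with the fit. It is not given for fits with other spread estimates or with arrays left out, so their counts describe the members only. Leaving out all 6 arrays of raised Saa3, or the arrays with skin genes together with the 2 of highest Saa3, was chosen after seeing the data, and the trend in NNK-treated A/J and C3H could not be computed without the 6. The cause of these shifts was not tested.

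In the untreated trend, 12 members fell in A/J, against 7 with each strain's own arrays, 7 for week 12 minus week 0 and 3 for weeks 3 to 12. The 1 rise in A/J became 0 on the deposited scale, with array weights, with own arrays, without the arrays with skin genes, for week 12 minus week 0 and for weeks 3 to 12. In C3H 6 fell, against 26 with array weights, 19 with own arrays, 12 without the 2 arrays of highest Saa3, 22 without all 6 of raised Saa3, 3 for week 12 minus week 0 and 0 for weeks 3 to 12. The trends differed for 0 members, for 1, Fbln2, without the 2 arrays of highest Saa3, alone or with those with skin genes, and for 3 without all 6.

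For NNK in A/J 0 members passed, against 1 on the deposited scale (Pcolce), 1 with a pseudocount of 1 (Lum), 1 with trended robust variances (Pcolce), 6 without the 2 arrays of highest Saa3, 3 without both sets and 5 without all 6. The NNK changes of the strains differed for 0 members, and for 1, Timp1, without the 2 arrays of highest Saa3. In the NNK-treated trend 1 member fell in A/J, against 0 with no filter on dim genes, 2 with the filter at the 50th percentile, 2 with array weights, 0 with own arrays, 3 without the 2 arrays of highest Saa3 and 2 without both sets. In C3H 2 fell there, against 5 with array weights, 9 with own arrays, 1 without the 2 arrays of highest Saa3 and 1 without both sets. Between untreated strains 5 members were higher in A/J, and 3 without both sets.

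With each of the 36 arrays removed in turn, the falls in untreated A/J ran from 8 to 16 and the rises from 0 to 1, the falls in untreated C3H from 1 to 17, the NNK calls from 0 to 7 in A/J and 0 to 0 in C3H, and the difference of the NNK changes from 0 to 1. The falls in NNK-treated lungs ran from 0 to 4 in A/J and from 0 to 16 in C3H, with 16 reached without array 2 of NNK-treated C3H week 3. The 7 NNK calls in A/J came without array 2 of NNK-treated A/J week 6. Members lower in untreated A/J than in C3H ran from 18 to 24 and higher from 4 to 5.

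The replicate block, which pairs arrays by number, gave 11 falls in untreated A/J and 7 in untreated C3H, and moved no count of calls by over 1.5 times. Correlations of same-numbered arrays over 153 pairs of groups ran from -0.38 to 0.424 with a median of 0.0173, and 47 were over 0.1. As both signs occurred, the numbers were not taken to pair the samples. With 2 arrays a group, a test of 1 week alone has little precision.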

Other observations

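Of 89 matrix genes outside the 40, 5 rose and 1 fell with NNK in A/J, where 7.44% of all genes rose and 2.6% fell. In C3H 0 of the 89 passed in limma. There 12 had an unadjusted p under 0.05, as did 936 of all 14953 genes. P4ha3, a subunit of prolyl 4-hydroxylase, rose by 0.58 ± 0.09 (adjusted p = 0.000236). Ctsk, the collagen-cutting cathepsin K, rose by 0.31 ± 0.08, Mmp8, a neutrophil collagenase, by 0.45 ± 0.12, Mmp23 by 0.28 ± 0.07 and Lamb3, an epithelial laminin chain, by 0.17 ± 0.04. Col11a1, a fibrillar collagen chain of cartilage, fell by 0.23 ± 0.07 (adjusted p = 0.0442). The cartilage gene Chad fell by 0.53 ± 0.10 beside it, and the summed level of 7 cartilage genes ran from 1265 to 1843 in NNK-treated and from 1412 to 2304 in untreated A/J arrays. The part of cartilage in the value of Col11a1 was not tested.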
